A study of Ovis aries with 23 samples.

Results

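The change from short to long photoperiod was followed in pars tuberalis (PT) samples in which the clock gene CRY1 was high. The samples were chosen by their measured CRY1 (ENSOARG00000017816) level: a sample counted as CRY1-high at 80 or more CPM (the gene's count over the sample's total count, on the usual CPM scale), as 13 of the 23 samples did. The early samples were 3 from short photoperiods (SP samples 2, 4, and 5) and 4 from the first day of long photoperiods (LP day 1 samples 2, 3, 4, and 5). The late samples were 3 from LP day 7 (samples 2, 4, and 6) and 3 from LP day 28 (samples 2, 4, and 6). The other 10 samples, here called CRY1-low, were 4 early (SP samples 1 and 3, LP day 1 samples 1 and 6) and 6 late (samples 1, 3, and 5 of LP day 7 and of LP day 28).

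The study sequenced total RNA of the PT, a part of the pituitary, from neutered male Scottish blackface sheep. The sheep were kept on SPs or moved to LPs for 1, 7, or 28 days. All groups shared sex, neutering, breed, and tissue, and no sample carried a transgene or drug. Each sample has its own file of read counts for 25197 Ensembl sheep genes. The labels do not say that each sample came from a separate animal, so p-values measure the spread between these samples only, and no sampling time per sample was given in the sources used here.

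The PT reads day length through melatonin, the hormone of darkness. Its thyrotroph cells carry melatonin receptors and a circadian clock, in which CRY1 is induced by the evening rise of melatonin and acts as a transcriptional repressor. On LPs, EYA3, a transcriptional coactivator, promotes TSHB, which encodes the beta subunit of thyroid-stimulating hormone (TSH). PT-derived TSH then acts on neighbouring hypothalamic cells to raise local thyroid hormone, the step that sets seasonal physiology.

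CRY1 chose the samples, and its values are given as a description with no test. On SPs the samples stood at 199, 228, and 446 CPM, and on LP day 1 at 205, 278, 308, and 201 CPM. On LP day 7 CRY1 was at 289, 314, and 244 CPM, and on LP day 28 at 257, 123, and 150 CPM. The median was 228 CPM over the early samples and 250 CPM over the late samples. The lowest CRY1-high sample (123 CPM) and the highest CRY1-low sample (36.7 CPM) lay on either side of a wide gap, and thresholds of 70 or 100 CPM chose the same 13 samples. The split ran along the sample numbers in the labels. All 6 late CRY1-high samples had even numbers and all 6 late CRY1-low samples odd numbers, whereas the early CRY1-high samples were 4 even and 3 odd. The meaning of the numbers was not given, so CRY1 level and sample number cannot be told apart on the late side.

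**Figure D1:**
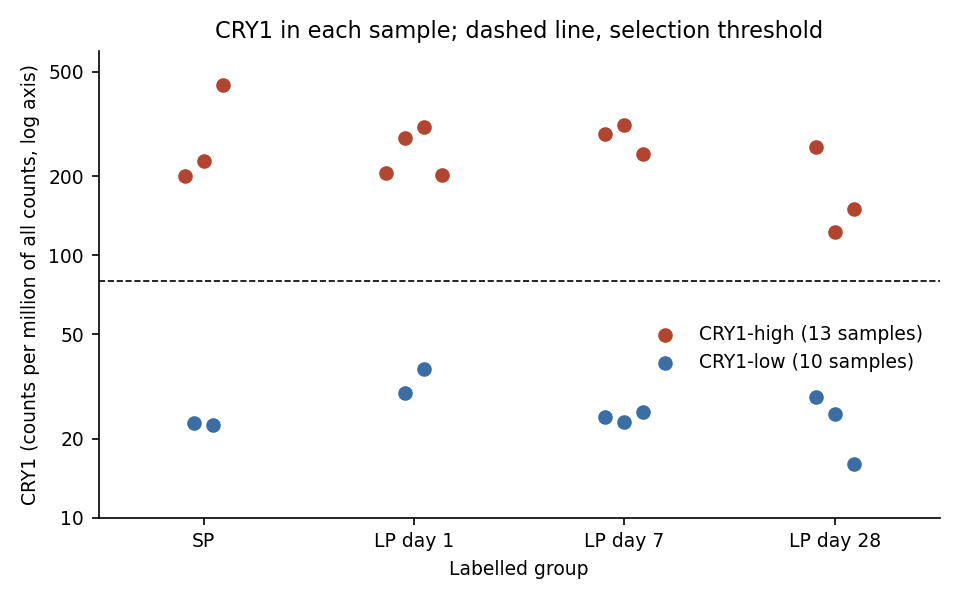
CRY1 in CPM of all counts (log axis) in each sample by labelled group, with the threshold of 80 as a dashed line. The 13 CRY1-high samples lie between 123 and 446 CPM and the 10 CRY1-low samples between 15.98 and 36.7 CPM.

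Depth was even apart from 1 library. The CRY1-high samples held 307952 to 3674567 counts (median 3048390), and without the shallowest, LP day 1 sample 4, the lowest was 2666363. The detection limit was set at 3 counts, or 9.74 CPM in that library and no more than 1.13 CPM in the other 12, and covers counting error only. LP day 1 samples 3 and 4 differed from each other by a chi-square of 1.15 per gene, where counting error alone gives about 1. The other 14 pairs of CRY1-high samples that share a group had 5.82 to 44.5. Results whose call was lost without both samples 3 and 4 of LP day 1 are given that way as well. The common glycoprotein subunit gene CGA, a thyrotroph marker, lay between 3886 and 11559 CPM. PRL, which encodes prolactin and is made by the neighbouring pars distalis, took 2.77% to 19.5% of all counts in the CRY1-high samples. The melatonin receptor gene MTNR1A, a defining PT marker, was low, at 0 to 7.02 CPM in the CRY1-high samples against 12.3 to 41.5 CPM in the CRY1-low samples. CPM of single genes are normalized over all 23 samples by the TMM method from here on. Since whole tissue was sequenced, fewer cells of a type and less RNA per cell cannot be told apart.

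Late CRY1-high samples were compared with early ones to ask what LPs changed when CRY1 was high in both. Of 14912 genes tested, 71 changed at an FDR under 0.05, which is 0.476% of the genes. These were 47 genes that rose (0.315%) and 24 that fell (0.161%). Every FDR below is a Benjamini-Hochberg adjusted p from the quasi-likelihood test of edgeR unless another tool is named. Among the 71 genes, 29 changed by more than 2-fold, 24 of them upward, and the median size of the change was 0.80 on the log2 scale. The median log2 fold change of all genes was −0.006. Over all 14912 genes, 1921 had an unadjusted p under 0.05 and DESeq2 called 214. The list counts below are to be set beside these values. The normalized values of the early and late samples did not overlap for 100 genes (0.671%), and 45 of these were among the 71. The predominance of rising genes varied with the setting. It was larger with normalization by library size alone, which called 44 genes, 37 higher and 7 lower. The same held without both LP day 1 samples 3 and 4 (26 higher, 5 lower). It was smaller with DESeq2 (113 higher, 101 lower) and limma voom with sample quality weights (65 higher, 62 lower). It was also smaller in edgeR's robust fit (51 higher, 41 lower) and without LP day 1 sample 2 (148 higher, 134 lower). Without both LP day 1 samples 3 and 4, 31 genes were called, 26 of them among the 71. With these 2 samples summed into 1, 53 genes were called, 52 of them among the 71. Single libraries also moved the count by more than 1.5 times. It was 282 without LP day 1 sample 2, and it was 41, 38, 40, 32, and 27 without SP sample 2, SP sample 4, LP day 7 sample 4, LP day 28 sample 2, and LP day 28 sample 6. With LP day 7 alone on the late side 8 genes were called, and with LP day 28 alone 47.

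Within the early and the late side the labelled groups were compared as well, in the same 13 samples. SP and LP day 1 differed in 0 of 15644 genes by edgeR, with 557 genes at an unadjusted p under 0.05 and 2 genes called by DESeq2. LP day 7 and LP day 28 differed in 1 gene (0.00639%), with 373 at an unadjusted p under 0.05 and 2 called by DESeq2. Of the 47 genes that rose, 35 had a higher mean at LP day 28 than at LP day 7, and 28 had a higher mean at LP day 1 than on SPs. Of the 24 genes that fell, 22 had a lower mean at LP day 28 than at LP day 7, and 14 a lower mean at LP day 1 than on SPs. The same counts over all genes were not made, so these describe the called genes only.

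**Figure D2:**
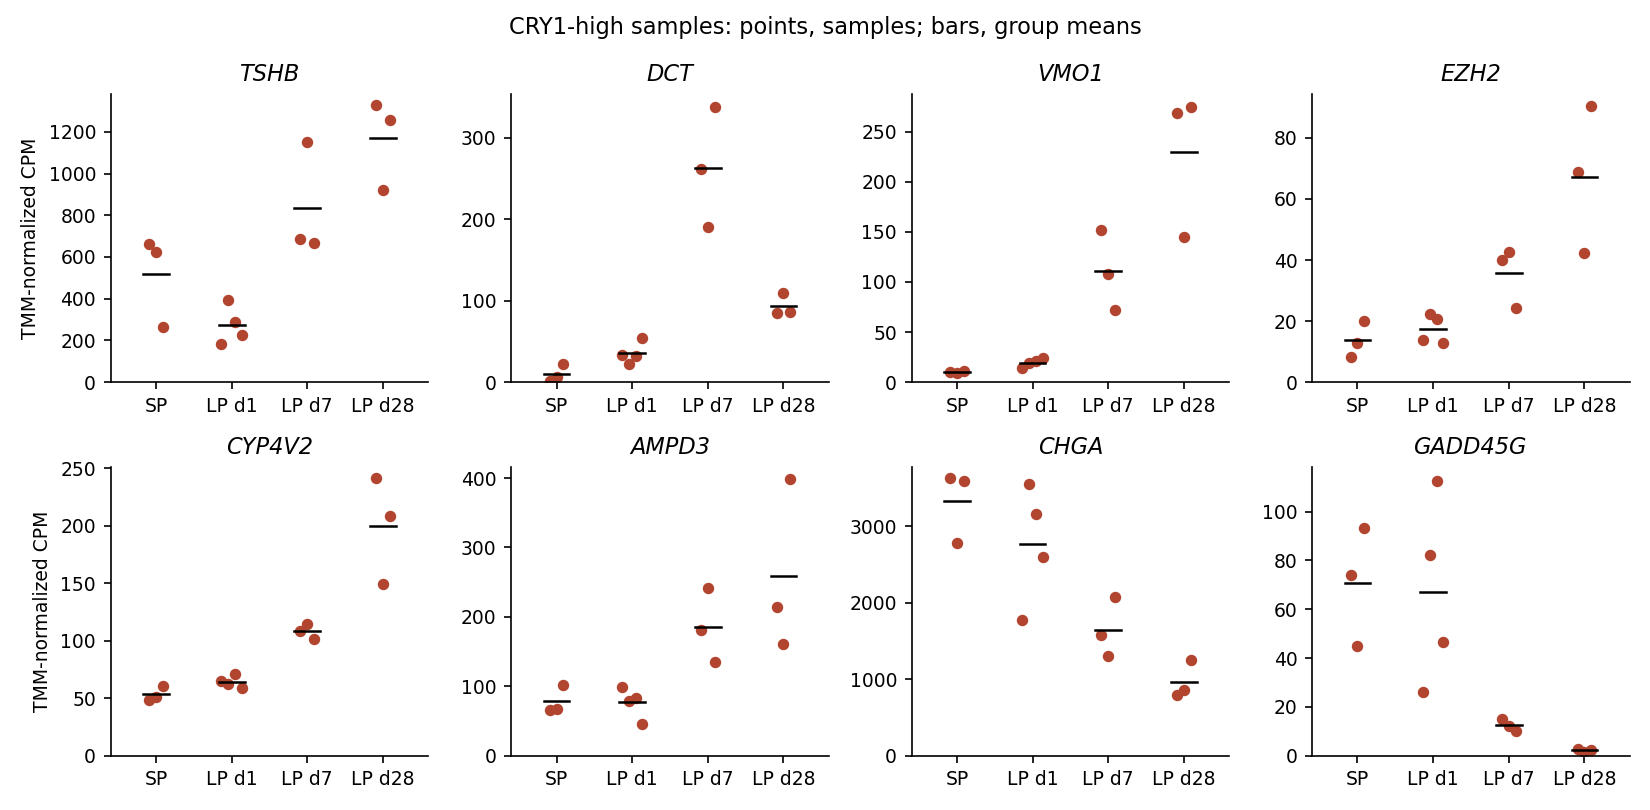
TMM-normalized CPM of 8 genes in the 13 CRY1-high samples by labelled group (points, samples; bars, group means). GADD45G and CHGA fell to their lowest means at LP day 28 (2.25 and 967 CPM), whereas VMO1 reached 229 CPM at LP day 28 and DCT was highest at LP day 7 (264 CPM).

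TSHB, the hormone gene at the end of the photoperiodic relay, rose in the CRY1-high samples. TSHB (ENSOARG00000020127) was at 664, 625.5, and 265 CPM on SPs, at 181, 394, 288, and 224 CPM on LP day 1, at 684, 1151, and 666 CPM on LP day 7, and at 1326, 921, and 1257 CPM on LP day 28. The highest early sample (664) and the lowest late sample (666) nearly met, and the LP day 1 mean (272 CPM) was the lowest of the 4 groups. The mean rose from 377 ± 194 (SD, n = 7) to 1001 ± 287 CPM (SD, n = 6), a log2 fold change of 1.39 ± 0.26 (SE, FDR = 0.0184). The call was lost without LP day 28 sample 2 (FDR = 0.0561) or sample 6 (FDR = 0.0602), without both LP day 1 samples 3 and 4 (1.35, FDR = 0.0856), and with SP samples alone on the early side (0.94, FDR = 0.132). It was also lost with LP day 7 samples alone on the late side (1.13, FDR = 0.524), with even-numbered samples only, and in edgeR's robust fit. CGA, which encodes the alpha subunit that TSH shares with the gonadotropins, did not pass the test, with 8588 ± 2531 CPM (SD, n = 7) early and 8048 ± 1153 CPM (SD, n = 6) late (−0.10 ± 0.17, SE).

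EYA3 (ENSOARG00000003071), the coactivator upstream of TSHB, ranged from 20.4 to 58.5 CPM in the CRY1-high samples and did not pass the test. It was at 23.02, 35.97, and 34.98 CPM on SPs and at 53.7, 30.3, 35.6, and 20.4 CPM on LP day 1. On LP day 7 it was at 30.9, 39.2, and 41.2 CPM, and on LP day 28 at 37.6, 58.5, and 46.8 CPM. Early and late samples overlapped widely, with means of 33.4 ± 10.9 CPM (SD, n = 7) and 42.4 ± 9.46 CPM (SD, n = 6) and a log2 fold change of 0.34 ± 0.19 (SE, FDR = 0.473). None of the 13 fits that left out a sample called EYA3.

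The list of relay genes held TSHB, EYA3, CGA, and CHGA, and also receptors, transporters, transcription factors, and other genes of the pathway. They were chosen as the study's and the field's genes for it with earlier results of these data known. Of 13 tested, 1 rose (TSHB) and 1 fell (CHGA), against 0.476% of all genes called, and their median log2 fold change was 0.33. At an unadjusted p under 0.05 were 5, and DESeq2 called 2. The thyroid hormone transporter gene SLCO1C1 stood at 57.9 ± 37.7 CPM (SD, n = 7) early and 119 ± 38.0 CPM (SD, n = 6) late (1.05 ± 0.30, SE, FDR = 0.131). TAC1, which encodes the tachykinin precursor, was between 0 and 4.06 CPM in the early samples and between 1.78 and 11.7 CPM in the late samples (1.74 ± 0.61, SE, FDR = 0.219). The TSH receptor gene TSHR (0.51, FDR = 0.394) and MTNR1A (0.33, FDR = 0.823) did not pass the test either.

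Among the genes of secretory granules, CHGA fell. CHGA (ENSOARG00000013347) encodes chromogranin A, a core protein of dense secretory granules. It was at 3632, 2776, and 3591 CPM on SPs, at 1774, 3548, 3157, and 2593 CPM on LP day 1, at 1578, 1299, and 2069 CPM on LP day 7, and at 793, 852, and 1256 CPM on LP day 28. Only LP day 1 sample 2 (1774) reached into the range of the late samples. The mean fell from 3010 ± 682 (SD, n = 7) to 1308 ± 475 CPM (SD, n = 6), a log2 fold change of −1.21 ± 0.20 (SE, FDR = 0.00636), and the call held in all 13 fits that left out a sample and without both LP day 1 samples 3 and 4 (FDR = 0.0497). It was lost with LP day 1 samples alone on the early side (−1.09, FDR = 0.111), with LP day 7 samples alone on the late side (−0.87, FDR = 0.258), and in edgeR's robust fit. Of the 7 granule and prohormone genes tested, edgeR called CHGA alone, DESeq2 called 3 (CHGA, CHGB, and VGF), 3 had an unadjusted p under 0.05, and the median was 0.07 (log2). VGF, a granin-family neuropeptide precursor, was at 81.5 ± 17.7 CPM (SD, n = 7) early and 130 ± 39.7 CPM (SD, n = 6) late (0.70 ± 0.17, SE, FDR = 0.0727, and 0.0184 by DESeq2). SYT5, a synaptotagmin of vesicle membranes outside this list, fell from 189 ± 18.9 (SD, n = 7) to 130 ± 19.3 CPM (SD, n = 6), with no overlap between the sides (−0.55 ± 0.10, SE, FDR = 0.0173). Its call was lost without LP day 28 sample 2 (FDR = 0.0517) or sample 6 (FDR = 0.0602) and without both LP day 1 samples 3 and 4 (FDR = 0.0732). It was also lost with SP (FDR = 0.0756) or LP day 1 samples (FDR = 0.136) alone on the early side. The same held with LP day 7 (FDR = 0.298) or LP day 28 samples (FDR = 0.0956) alone on the late side.

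The short photoperiod markers, 10 genes that the study or an earlier look at these data found higher on SPs and so no independent evidence of direction, all had negative log2 fold changes. Of the 10, 3 fell (CHGA, BFSP2, and GADD45G), 8 had an unadjusted p under 0.05, DESeq2 called 5, and the median was −1.28. GADD45G (ENSOARG00000007786), a growth-arrest and DNA-damage-inducible gene, was at 74.1, 45.05, and 93.4 CPM on SPs, at 25.9, 82.4, 113, and 46.6 CPM on LP day 1, at 15.1, 12.4, and 10.3 CPM on LP day 7, and at 2.74, 1.68, and 2.34 CPM on LP day 28. The sides did not overlap, and each LP day 28 sample lay below each LP day 7 sample. Its mean fell from 68.6 ± 30.7 (SD, n = 7) to 7.42 ± 5.88 CPM (SD, n = 6), a log2 fold change of −3.08 ± 0.40 (SE, FDR = 0.00105).

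GADD45G is also on the list of immediate early and handling-stress genes, of which 7 were tested and it was the 1 called, with a list median of −0.10. BFSP2, which encodes the intermediate filament protein phakinin, fell from 21.5 ± 9.02 (SD, n = 7) to 8.50 ± 3.09 CPM (SD, n = 6) with an overlap between the sides (−1.24 ± 0.27, SE, FDR = 0.0449), and only 3 of the 13 fits that left out a sample called it (FDR up to 0.132). Without both LP day 1 samples 3 and 4 its FDR was 0.124. The neuropeptide S receptor gene NPSR1 missed the threshold with 6.78 ± 3.83 CPM (SD, n = 7) early and 1.38 ± 1.204 CPM (SD, n = 6) late (−2.21 ± 0.50, SE, FDR = 0.0503). AGER, which encodes a receptor for glycated proteins, was at 19.7 ± 5.36 CPM (SD, n = 7) and 10.005 ± 2.88 CPM (SD, n = 6), with FDR = 0.0563. C1orf110 (−1.41, FDR = 0.167), SOX14 (−1.21, FDR = 0.177), and PAQR6 (−0.40, FDR = 0.597) did not pass.

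Large rises were measured in a list of melanogenesis and late long-day genes, which was drawn up with the earlier results known. Of 5 genes tested, 3 rose (DCT, VMO1, and BPIFC) and the median log2 fold change was 2.92. VMO1 (ENSOARG00000007112), which encodes a secreted protein first known from the egg's vitelline membrane, was at 10.5, 8.75, and 11.6 CPM on SPs, at 14.1, 18.7, 20.8, and 23.7 CPM on LP day 1, at 152, 108, and 72.4 CPM on LP day 7, and at 268, 145, and 275 CPM on LP day 28. All 3 SP samples lay below all 4 LP day 1 samples, and these below all late samples. The mean rose from 15.4 ± 5.67 (SD, n = 7) to 170 ± 83.6 CPM (SD, n = 6), a log2 fold change of 3.52 ± 0.30 (SE, FDR = 2.55e-06).

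DCT (ENSOARG00000000618), dopachrome tautomerase of melanin synthesis, had its highest level at LP day 7. It was at 1.69, 5.83, and 22.9 CPM on SPs, at 32.8, 22.2, 32.6, and 53.9 CPM on LP day 1, at 262, 191, and 338 CPM on LP day 7, and at 85.2, 110, and 86.1 CPM on LP day 28. The sides did not overlap, and the 3 LP day 28 samples lay below the 3 LP day 7 samples, although that difference did not pass the test across genes. DCT rose from 24.6 ± 17.7 (SD, n = 7) to 179 ± 104 CPM (SD, n = 6), by 2.92 ± 0.45 (SE, FDR = 0.00411), and with LP day 28 samples alone on the late side the call was lost (FDR = 0.103). TYRP1, another enzyme of melanin synthesis, was at 14.98 ± 2.48 CPM (SD, n = 7) and 19.9 ± 7.49 CPM (SD, n = 6), and did not pass the test (0.39 ± 0.21, SE, FDR = 0.458).

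BPIFC, of the family of lipopolysaccharide-binding fold proteins, was near the detection limit early. It had 3 counts in all, in LP day 1 sample 5, over the 7 early samples and 101 counts over the 6 late samples. The ratio of the rates was 34.8, with an exact 95% interval of 11.6 to 171 that covers counting error only. The late samples ranged from 1.71 to 8.75 CPM, and BPIFC rose with FDR = 0.00191. Its call was lost with LP day 1 samples alone on the early side (FDR = 0.0972) or LP day 7 samples alone on the late side (FDR = 0.110). CALB1, a calcium-binding protein gene of the same list, was at 0 to 1.25 CPM early and at 0.343 to 13.3 CPM late and did not pass (2.85 ± 0.72, SE, FDR = 0.0835).

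Among 11 circadian clock genes tested besides CRY1, ARNTL2 rose and no other gene was called. At an unadjusted p under 0.05 were 3 (ARNTL, ARNTL2, and CIART), and the list median was 0.21 (log2). ARNTL2 (ENSOARG00000019779), a partner of CLOCK in the activating arm of the clock, had 8 counts over the 7 early samples, 3 of which had none, and 97 counts over the 6 late samples. The highest early sample was at 0.937 CPM and the lowest late sample at 1.48 CPM, and LP day 28 samples 2 and 6 were highest, at 10.95 and 11.3 CPM. The ratio of the rates was 12.5 with an exact 95% interval of 6.11 to 29.8 for counting error, and ARNTL2 rose with FDR = 0.0123. Its call was lost with LP day 7 samples alone on the late side (FDR = 0.478) and with LP day 1 samples alone on the early side (FDR = 0.215). ARNTL, its close relative BMAL1 of the core clock, was at 49.4 ± 12.6 CPM (SD, n = 7) early and 28.4 ± 7.58 CPM (SD, n = 6) late and narrowly missed the threshold (−0.79 ± 0.18, SE, FDR = 0.0559), and DESeq2 called it (FDR = 0.00863). The repressors PER3 (0.35, FDR = 0.424), BHLHE41 (0.26, FDR = 0.445), and CIART (0.73, FDR = 0.217) did not pass.

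The other rising genes with a symbol and no overlap included enzymes, a chromatin regulator, and a co-receptor. EZH2 (ENSOARG00000018856), the histone methyltransferase of the Polycomb repressive complex, was at 8.13, 12.96, and 20.03 CPM on SPs, at 13.7, 22.2, 20.8, and 12.7 CPM on LP day 1, at 40.1, 42.7, and 24.4 CPM on LP day 7, and at 68.8, 42.4, and 90.4 CPM on LP day 28. LP day 7 sample 6 (24.4) was the late sample nearest the early range. EZH2 rose from 15.8 ± 5.22 (SD, n = 7) to 51.5 ± 23.8 CPM (SD, n = 6), by 1.74 ± 0.27 (SE, FDR = 0.00411). The call was lost with LP day 1 samples alone on the early side (FDR = 0.102) or LP day 7 samples alone on the late side (FDR = 0.184).

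CYP4V2 (ENSOARG00000008195), a fatty acid hydroxylase of the cytochrome P450 family, was between 48.4 and 71.2 CPM early (median 60.4) and between 101 and 242 CPM late (median 132). Every LP day 28 sample lay above every LP day 7 sample. It rose from 59.5 ± 7.79 (SD, n = 7) to 154 ± 58.4 CPM (SD, n = 6), by 1.39 ± 0.18 (SE, FDR = 0.00105). AMPD3 (ENSOARG00000011248), an AMP deaminase, ranged from 45.2 to 101 CPM early (median 79.3) and from 135 to 398 CPM late (median 198), and rose by 1.52 ± 0.22 (SE, FDR = 0.00191). GPLD1 (ENSOARG00000006871), a phospholipase that cleaves the lipid anchor of membrane proteins, ranged from 8.80 to 43.3 CPM early (median 28.7) and from 50.1 to 170 CPM late (median 98.8), and rose by 2.06 ± 0.29 (SE, FDR = 0.00191). With LP day 7 samples alone on the late side the GPLD1 call was lost (FDR = 0.124).

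KL (ENSOARG00000010855), which encodes klotho, a membrane co-receptor for endocrine fibroblast growth factors, was between 0.728 and 5.92 CPM early (median 4.68) and between 7.55 and 17.5 CPM late (median 13.7). The 3 LP day 28 samples, at 17.5, 17.5, and 16.4 CPM, were its highest. KL rose by 1.62 ± 0.31 (SE, FDR = 0.0195), and the call was lost without SP sample 4 (FDR = 0.0510), without LP day 28 sample 2, 4, or 6 (FDR = 0.0572, 0.0527, and 0.0612), and without both LP day 1 samples 3 and 4 (FDR = 0.0687). It was also lost with SP (FDR = 0.0735) or LP day 1 samples (FDR = 0.138) alone on the early side. With LP day 7 samples alone on the late side its FDR was 0.702. NRIP3, a nuclear receptor-interacting protein gene, rose from 4.98 ± 2.36 (SD, n = 7) to 13.7 ± 2.53 CPM (SD, n = 6) (1.37 ± 0.26, SE, FDR = 0.0184), and lost the call without LP day 28 sample 2 (FDR = 0.0520) or sample 6 (FDR = 0.0612) and without both LP day 1 samples 3 and 4 (FDR = 0.0547). ADAMTS16, a secreted metalloproteinase gene, had 22 counts early and 79 late, a rate ratio of 3.71 (exact 95% counting interval 2.29 to 6.25, FDR = 0.0413), and 3 of the 13 fits that left out a sample called it (FDR up to 0.104). The ADAMTS16 call was also lost without both LP day 1 samples 3 and 4 (FDR = 0.0853). KLHDC8B, a kelch-domain protein gene, fell from 132 ± 17.7 (SD, n = 7) to 89.6 ± 8.27 CPM (SD, n = 6) with no overlap (−0.57 ± 0.10, SE, FDR = 0.0121), and without both LP day 1 samples 3 and 4 its FDR was 0.0504. The calls of NRIP3, ADAMTS16, and KLHDC8B were also lost with LP day 1 samples alone on the early side. The same held with LP day 7 samples alone on the late side (FDR from 0.124 to 0.392 over both settings). With LP day 28 samples alone the calls of NRIP3, ADAMTS16, and KLHDC8B were lost as well (FDR = 0.0948, 0.437, and 0.0694). ADAMTS16 also lost its call with SP samples alone on the early side (FDR = 0.0997).

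Further genes among the 71 were picked for their known function after their values were seen. The transporter gene ABCG2 rose from 59.9 ± 8.47 (SD, n = 7) to 133 ± 46.2 CPM (SD, n = 6), and PDK4, a kinase that restrains pyruvate oxidation, from 69.1 ± 25.3 CPM to 139 ± 27.3 CPM. The adhesion gene CNTN1 rose from 165 ± 36.8 CPM to 309 ± 80.3 CPM, and the fibrillar collagen gene COL11A1 from 124 ± 24.4 CPM to 207 ± 24.6 CPM. GNPTAB, needed for the mannose tag of lysosomal enzymes, rose from 83.3 ± 13.8 CPM to 162 ± 46.7 CPM. These values are means with SD over 7 early and 6 late samples, and their log2 fold changes lay between 0.73 and 1.14. Without both LP day 1 samples 3 and 4 the CNTN1 call was lost (0.87, FDR = 0.0547). With LP day 1 samples alone on the early side the calls of ABCG2, PDK4, CNTN1, COL11A1, and GNPTAB were all lost (FDR from 0.0619 to 0.200). Those of PDK4, CNTN1, COL11A1, and GNPTAB were also lost with LP day 7 samples alone on the late side (FDR from 0.0623 to 0.258). LP day 28 samples alone on the late side lost the calls of PDK4 (FDR = 0.150) and COL11A1 (FDR = 0.0542). The dopamine receptor gene DRD1 fell from 68.1 ± 28.1 (SD, n = 7) to 29.3 ± 8.60 CPM (SD, n = 6), with each LP day 28 sample (20.3 to 22.2 CPM) below each LP day 7 sample (36.2 to 38.4 CPM). Its log2 fold change was −1.14 ± 0.23 (SE, FDR = 0.0303). The DRD1 call held in 7 of the 13 fits that left out a sample and was lost without both LP day 1 samples 3 and 4 (FDR = 0.103).

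The listed genes of cell remodelling, interferon response, and cell division gave no calls in the CRY1-high samples. COL11A1, CNTN1, and ADAMTS16, called above, were not among the list members tested. Over the hedgehog and Wnt (5 tested), axon guidance (4), matrix and adhesion (8), interferon-induced (11), and cell division (3) lists, edgeR called 0 of 31 genes, 10 had an unadjusted p under 0.05, and DESeq2 called 2, KAL1 and IFI44L. Of all 14912 genes, 1921 had an unadjusted p under 0.05 and DESeq2 called 214. The list medians were 0.21, −0.10, 0.32, −0.51, and 0.60 (log2), and of genes for the endoplasmic reticulum and Golgi only 1 was paired and it was not called. In the interferon-induced list the LP day 1 samples spread widely, as for MX1 (113 ± 132 CPM) and ISG17 (21.0 ± 34.1 CPM, SD, n = 4). SHH, the sonic hedgehog morphogen, was at 9.48, 8.75, and 17.8 CPM on SPs, at 19.1, 55.3, 62.3, and 60.8 CPM on LP day 1, at 74.8, 65.5, and 96.4 CPM on LP day 7, and at 55.8, 48.8, and 44.4 CPM on LP day 28. The SP samples and LP day 1 sample 2 stood below all others. For the late against the early side SHH did not pass (1.09 ± 0.37, SE, FDR = 0.205). With SP samples alone on the early side it was called (2.39, FDR = 0.00119), and so was SLCO1C1 (1.97, FDR = 0.00238). KAL1 (2.32, FDR = 0.0468), ARNTL (−1.08, FDR = 0.0203), NPSR1 (−2.78, FDR = 0.0203), and AGER (−1.10, FDR = 0.0491) were called in that setting too.

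Between SP and LP day 1, SHH had a log2 fold change of 1.95 ± 0.35 (SE, FDR = 0.365) and SLCO1C1 of 1.42 ± 0.29 (SE, FDR = 0.513), and these were the 2 genes that DESeq2 called. Without LP day 1 sample 2, edgeR called SHH as well (FDR = 0.000480). KAL1, the anosmin gene of axon guidance, was at 0.324 to 6.92 CPM early and 7.72 to 13.3 CPM late, with no overlap, but did not pass the test (1.34 ± 0.38, SE, FDR = 0.127). COL2A1, a cartilage collagen gene, was at 44.7 ± 20.6 CPM (SD, n = 7) and 75.01 ± 18.98 CPM (SD, n = 6), with FDR = 0.209. SEMA3D, NCAN, GPR56, and WIF1 had log2 fold changes of −0.13, −0.17, −0.07, and 0.28, with FDR of 0.793 or more, and DNAH8 was too low to be tested.

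The 1 gene called between LP day 7 and LP day 28 was NLRP12, an innate immune sensor. It was at 43.0, 20.7, and 26.1 CPM on LP day 7 and at 5.48, 6.39, and 8.19 CPM on LP day 28, with no overlap. It fell by 2.17 on the log2 scale (SE 0.28, FDR = 0.00732). On SPs it was at 7.79 to 8.18 CPM and on LP day 1 at 14.8 to 16.8 CPM. The call was lost without LP day 7 sample 2 (FDR = 0.0656) and without LP day 28 sample 2 (FDR = 0.146) or sample 4 (FDR = 0.0607).

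**Figure D3:**
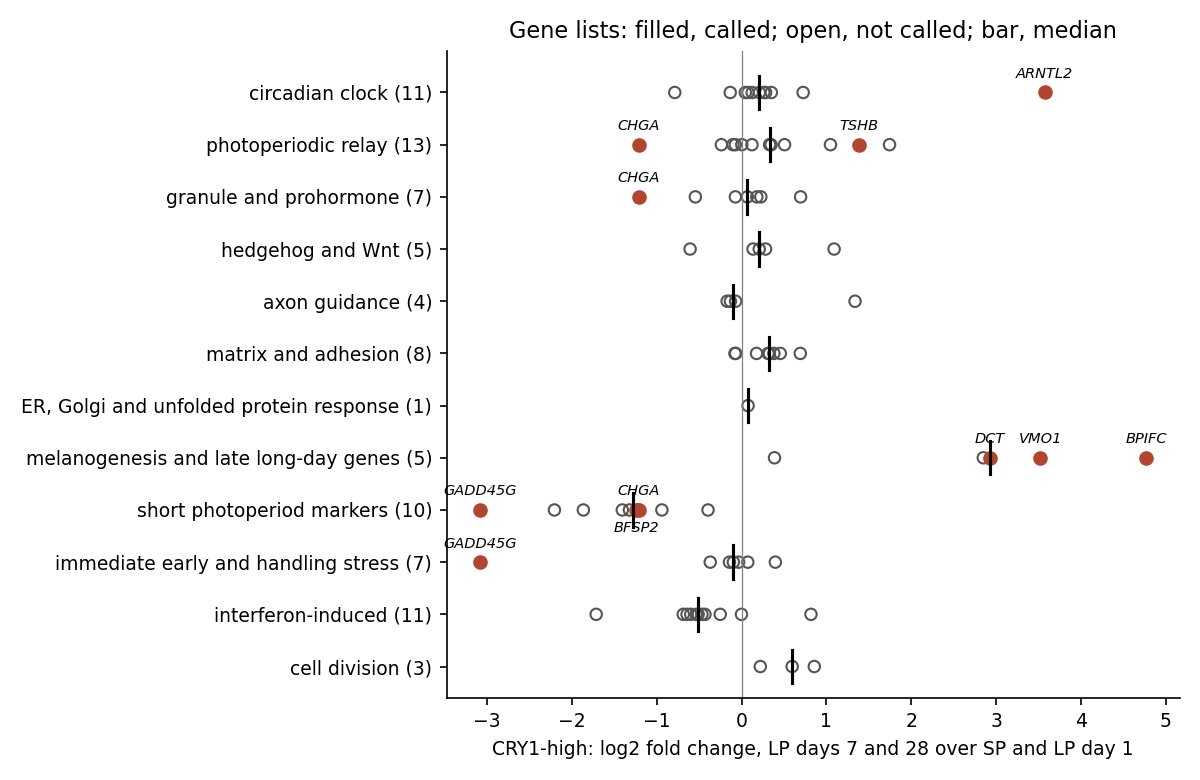
Log2 fold change of late over early CRY1-high samples for each tested gene of 12 lists (filled, FDR under 0.05; open, not called; vertical bar, list median; number tested in brackets). The 5 melanogenesis and late long-day genes have the highest median (2.92) and the 10 short photoperiod markers the lowest (−1.28).

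Markers of other cell types were set beside these changes. Over folliculostellate, pars distalis, immune, hypothalamic, and meningeal lists, edgeR and DESeq2 called 0 of 21 genes, 3 had an unadjusted p under 0.05, and the median was −0.07 (log2). Of all 14912 genes, 1921 had an unadjusted p under 0.05. The summed level of the 8 pars distalis markers ran from 35061 to 271193 CPM in early and from 74700 to 253028 CPM in late samples, with PRL the largest. The 4 folliculostellate markers summed to between 1347 and 2349 CPM early and between 1335 and 1850 CPM late. The 5 meningeal and fibroblast markers summed to 1014 to 1576 CPM early and 1247 to 1722 CPM late, and the 3 hypothalamic markers to 27.5 to 437 CPM and 75.5 to 236 CPM. No endothelial or red cell marker was paired with an identifier. Of the 8 thyrotroph markers tested, TSHB rose and CHGA fell, and the median was 0.15. With log2 PRL as a covariate 81 genes were called, 68 of them among the 71.

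The same comparison in the CRY1-low samples, 4 early against 6 late, shares no sample with the CRY1-high comparison. It called 13 of 15154 genes (0.0858%), 11 higher (0.0726%) and 2 lower (0.0132%), with 1138 genes (7.51%) at an unadjusted p under 0.05. The count was 7 without SP sample 1, 4 without SP sample 3, and 23 without LP day 7 sample 3. Of the 71 genes called in the CRY1-high samples, 60 (84.5%) had the same direction in the CRY1-low samples, against 60.2% of the 14792 genes tested in both, and 27 of these had an unadjusted p under 0.05 there. DCT, CYP4V2, FNDC3A, CHGA, and ARNTL2 were called in both, 7.04% of the 71 and 38.5% of the 13. In the direction of the CRY1-high change, the median log2 fold change of the 71 genes was 0.80 in the CRY1-high samples. It was 0.26 in the CRY1-low samples, whose values had no part in choosing the 71.

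CHGA went from 3112 ± 961 (SD, n = 4) to 1276 ± 250 CPM (SD, n = 6) in the CRY1-low samples, a log2 fold change of −1.30 ± 0.18 (SE, FDR = 0.0119) that lay close to the −1.21 of the CRY1-high samples. The difference of both changes was 0.09 ± 0.30 (SE). DCT rose by 3.28 ± 0.48 (SE, FDR = 0.0119) and ARNTL2 by 3.41 ± 0.56 (SE, FDR = 0.0252) there, and CYP4V2 by 1.02 ± 0.13 (SE, FDR = 0.00785). The ARNTL2 call in the CRY1-low samples held in 3 of the 10 fits that left out a sample (FDR up to 0.158), and that of DCT was lost without SP sample 1 (FDR = 0.0576) or SP sample 3 (FDR = 0.0667). FNDC3A, a fibronectin-domain protein gene, rose by 0.79 ± 0.17 (SE, FDR = 0.0449) with CRY1 high, in a call that held in 2 of the 13 fits that left out a sample (FDR up to 0.137), and by 1.06 ± 0.17 (SE, FDR = 0.0151) with CRY1 low. Its call with CRY1 high was lost without both LP day 1 samples 3 and 4 (0.71, FDR = 0.148), and that with CRY1 low without SP sample 1 (FDR = 0.0612) or SP sample 3 (FDR = 0.116). TSHB, from 177 ± 97.7 (SD, n = 4) to 820 ± 522 CPM (SD, n = 6), had a log2 fold change of 2.20 ± 0.51 (SE) and did not pass there (FDR = 0.178). VMO1 had one of 3.70 ± 0.67 (SE) and missed the threshold (FDR = 0.0569). GADD45G was low throughout, at 1.73 to 7.10 CPM early and 0.284 to 2.61 CPM late (−1.20 ± 0.50, SE, FDR = 0.596), where the early CRY1-high samples held 25.9 to 113 CPM.

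**Figure D4:**
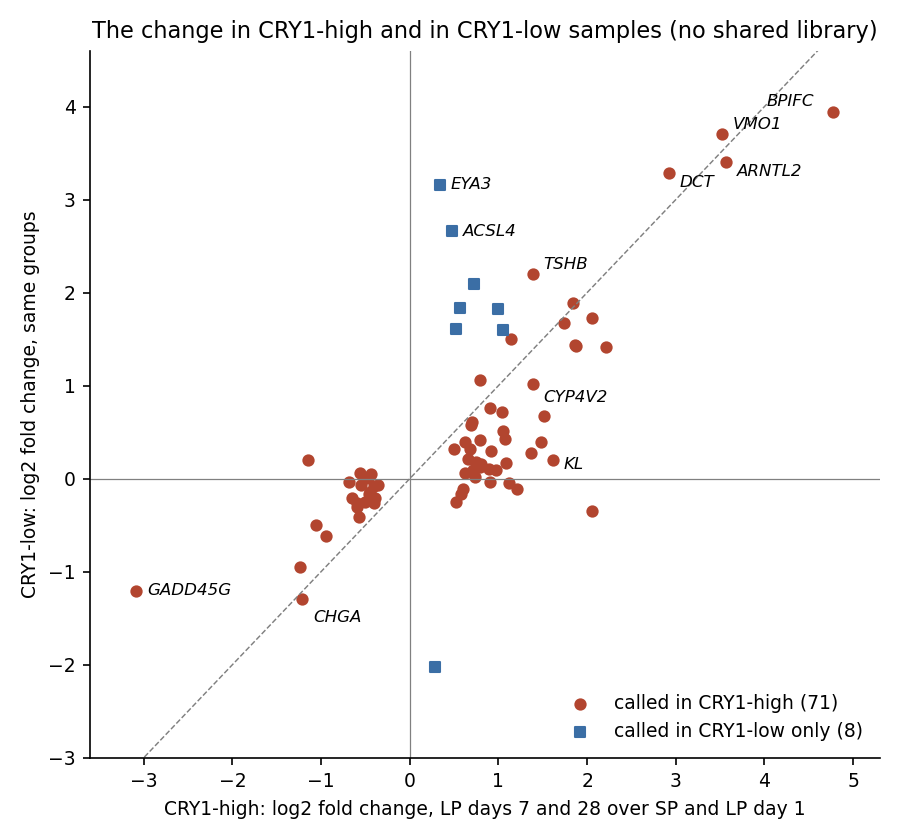
Log2 fold change of late over early samples in the CRY1-low samples against that in the CRY1-high samples, for the 71 genes called with CRY1 high (circles) and 8 called with CRY1 low alone (squares); the dashed line marks equal change. Of the 71 circles, 60 lie in the quadrants of equal sign, and EYA3 and ACSL4 lie far above the line.

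Whether a change differed between CRY1-high and CRY1-low samples was tested directly over all 23 samples. Of 15844 genes, 6 differed (0.0379%), with 765 at an unadjusted p under 0.05. None of the 71 genes had a difference with an FDR under 0.05 by edgeR, so no change among the 71 can be called particular to the CRY1-high samples. Of the 71, 34 had an unadjusted p under 0.05. The 71 were chosen by their change in the CRY1-high samples, which is part of the difference. The 34 can therefore not be set against the 765 of all genes. The differences with unadjusted p-values were 1.42 ± 0.41 (SE) for KL, −1.94 ± 0.81 (SE) for GADD45G, and 1.17 ± 0.30 (SE) for LXN, with FDR of 0.670, 0.985, and 0.515. LXN, the carboxypeptidase inhibitor latexin and chosen after its values were seen, went from 9.60 ± 3.23 (SD, n = 7) to 20.5 ± 3.30 CPM (SD, n = 6) with CRY1 high and from 10.2 ± 2.06 (SD, n = 4) to 9.83 ± 1.58 CPM (SD, n = 6) with CRY1 low.

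EYA3 was among the 6 genes that differed. In the CRY1-low samples it was at 37.1 and 28.3 CPM on SPs, at 60.4 and 75.6 CPM on LP day 1, at 969, 381, and 332 CPM on LP day 7, and at 407, 123, and 471 CPM on LP day 28. Early and late samples did not overlap there, and each late CRY1-low sample lay above every CRY1-high sample, the highest of which was 58.5 CPM. EYA3 rose by 3.16 ± 0.45 (SE, FDR = 0.0119) with CRY1 low against 0.34 ± 0.19 (SE) with CRY1 high. The call with CRY1 low was lost without SP sample 1 (FDR = 0.0576) or SP sample 3 (FDR = 0.0667). The difference was −2.82 ± 0.48 (SE, FDR = 0.0152), and it had FDR = 0.0522 without SP sample 3, a CRY1-low library.

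ACSL4 (ENSOARG00000017954), an acyl-CoA synthetase for arachidonic acid, followed the same course. With CRY1 high it was at 75.5 to 117 CPM early (median 84.0) and 78.2 to 171 CPM late (median 111), with overlapping sides and a log2 fold change of 0.48 ± 0.16 (SE, FDR = 0.185). With CRY1 low it was at 105 to 175 CPM early and 462 to 1509 CPM late, and rose by 2.66 ± 0.31 (SE, FDR = 0.00696). The difference was −2.17 ± 0.35 (SE, FDR = 0.00904). When the test was limited to even-numbered CRY1-high and odd-numbered CRY1-low samples, so that both sides of each set had numbers of 1 kind, it called 0 genes, with 1110 at an unadjusted p under 0.05. The differences were then −3.23 for EYA3 and −2.31 for ACSL4 (both FDR = 0.0593).

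**Figure D5:**
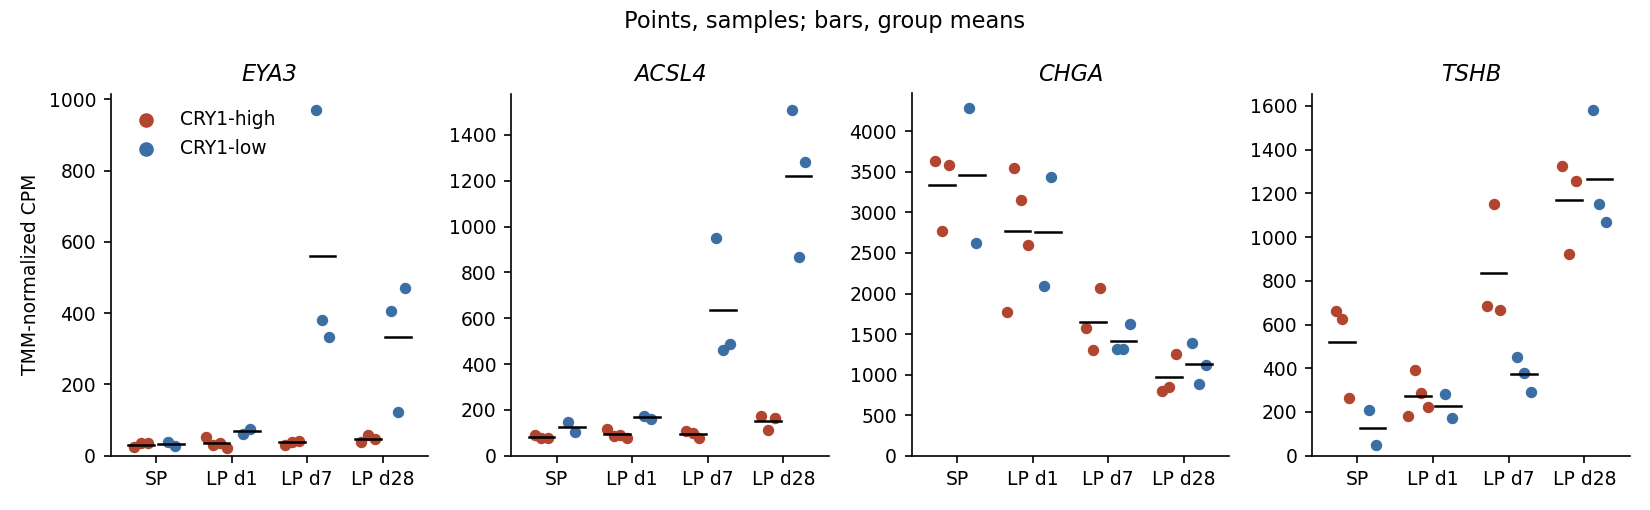
TMM-normalized CPM of EYA3, ACSL4, CHGA, and TSHB by labelled group in CRY1-high and CRY1-low samples (points, samples; bars, group means). Late EYA3 lies between 30.9 and 58.5 CPM with CRY1 high and between 123 and 969 CPM with CRY1 low, whereas late CHGA lies between 793 and 2069 CPM and between 889 and 1626 CPM.

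The other 4 genes that differed had no symbol in the sources used here. ENSOARG00000001811 was at 7.87 ± 1.65 CPM (SD, n = 7) early and 9.56 ± 2.44 CPM (SD, n = 6) late with CRY1 high, and fell from 15.8 ± 4.11 (SD, n = 4) to 3.80 ± 1.90 CPM (SD, n = 6) with CRY1 low (difference 2.31 ± 0.37, SE, FDR = 0.00904). ENSOARG00000020789 rested on both CRY1-low SP samples, at 255 and 492.8 CPM, whereas the early CRY1-high samples held 12.6 CPM or less and CRY1-high samples 6 of LP day 7 and of LP day 28 held 77.2 and 69.8 CPM. Of the remaining 2, the gene with the larger difference exceeded 1 CPM only in the same 2 SP samples and in CRY1-high samples 2 and 4 of LP day 7.

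Of the 13 genes called in the CRY1-low samples, 12 had the same direction with CRY1 high. The clock repressor CIART was at 7.63 ± 3.21 CPM (SD, n = 7) early and 11.7 ± 3.08 CPM (SD, n = 6) late with CRY1 high, and rose from 11.03 ± 1.73 (SD, n = 4) to 47.9 ± 20.1 CPM (SD, n = 6) with CRY1 low (FDR = 0.0151), in a call that held in 6 of the 10 fits that left out a sample (FDR up to 0.0873). The difference of its changes was −1.36 ± 0.42 (SE, FDR = 0.783). SLCO1C1 rose by 1.59 ± 0.21 (SE, FDR = 0.00785) with CRY1 low, and its difference was −0.55 ± 0.44 (SE, FDR = 0.996).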

How the data were processed

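The authors deposited raw counts of reads per Ensembl gene (Oar_v3.1), 1 file per sample. The labels name Bowtie and HTSeq, whereas the file headers have the form of featureCounts output, so the counting program and its use of strand were not settled. Groups came from the sample labels and the CRY1-high set from CRY1 counts divided by total counts. The members and gene lists were chosen with earlier results of these data known. Counts were fitted in R 4.3.3 with edgeR 4.0.16 (TMM, glmQLFit, and glmQLFTest). Genes above 1 CPM in as many samples as the smaller side were kept (6 for CRY1-high, 4 for CRY1-low and the difference, 3 for labelled groups), with calls at FDR under 0.05 over all genes tested. SE was taken as log2 fold change over the root of the F statistic. Fits were tested on simulated data. DESeq2 1.42.0 and limma 3.58.1 were alternatives, with others of normalization, filter, samples, and covariate. Those with both LP day 1 samples 3 and 4 left out, with PRL, and with sample numbers of 1 kind were chosen after seeing the data.

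Symbols came from the study's tables, which paired 1259 of them (29 with more than 1 identifier) and 101 of 300 list members, so the lists hold mainly genes that the study picked from its own data. By rule the text names the study's RNA-seq genes, the called genes with a symbol and no overlap whose change was largest (at most 12 per direction), 5 for the difference and 3 within sides, and list members. Other names were chosen after their values were seen. Same-numbered samples did not deviate together (mean correlation 0.0150 over 14 pairs, −0.104 to 0.191), so numbers were not taken as pairs. LP day 1 samples 3 and 4, whose counts were close but not identical, were kept as 2 samples. The early SD, and every SE and FDR that uses both, therefore count them as separate. No genome positions or sequences were used.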

Additional observations from a re-analysis of the deposited data

Results flagged for a closer look

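In 72 groups of samples tested over 36 genes for a single sample far from the rest, 5 stood out, and chance flags about 1 in 20 such groups. WIF1, an inhibitor of Wnt signals, reached 212.8 CPM in LP day 28 sample 6, where no other late CRY1-high sample exceeded 78.4 CPM. SEMA3D was at 0.673 CPM in LP day 28 sample 4, with the next late sample at 1.61 CPM. DNAH8 reached 2.40 CPM in LP day 28 sample 2, and the next late sample was at 0.806 CPM. BPIFC had 1.09 CPM in LP day 1 sample 5, the other early samples being at 0. ACSL4 was at 116.5 CPM in LP day 1 sample 2, with the next early sample at 92.0 CPM.

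The photoperiod change differed between CRY1-high and CRY1-low samples, by edgeR's test of the difference, in 6 genes. The log2 differences were −2.82 for EYA3, −2.17 for ACSL4, and 2.31 for ENSOARG00000001811. For the other 3 genes without a symbol they were 1.14, 10.14, and 10.28. With a sample left out, the calls of these 3 held in 4 of 23, 8 of 21, and 11 of 23 fits. Those of EYA3, ACSL4, and ENSOARG00000001811 held in 22, 23, and 23 of 23 fits. The gene with a difference of 10.14 was not tested within the CRY1-high samples, because too few of them exceeded 1 CPM.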

How the results depend on the processing

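In the CRY1-high comparison 71 genes were called. DESeq2 called 214 (113 higher, 101 lower), the exact test with a dispersion per gene 194, limma voom with sample quality weights 127, log2 GH1 as a covariate 142, and even-numbered samples alone 147. Library size normalization called 44 (37 higher, 7 lower), FDR under 0.01 left 19, and leaving out both LP day 1 samples 3 and 4 left 31. LP day 1 alone on the early side gave 10, LP day 7 alone on the late side 8, and LP day 28 alone 47. Leaving out each sample in turn gave 27 (without LP day 28 sample 6) to 282 (without LP day 1 sample 2). The CRY1-low comparison (13) gave 72 with DESeq2, 21 without a filter, and 4 (without SP sample 3) to 23 (without LP day 7 sample 3) with a sample left out. The difference (6) gave 0 with even-numbered high and odd-numbered low samples alone and 3 to 6 with a sample left out, of which 9 fits gave 3. SP against LP day 1 (0) gave 2 with DESeq2, 3 without a filter, and 0 to 1 with a sample left out. LP day 7 against LP day 28 (1) gave 2 with DESeq2 and 0 to 2 with a sample left out. The causes were not tested.

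With the sample number as a replicate block, the CRY1-high comparison called 22 genes, 11 of them among the 71, the CRY1-low comparison 9, the difference 4, SP against LP day 1 2, and LP day 7 against LP day 28 1. The numbers were not shown to pair samples.

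Of the 15 genes named for the largest changes, 10 were called with each sample left out, and CYP4V2, GADD45G, and VMO1 were called in every alternative run. Changes of sign occurred only in values that were not called. With the block NCAN was at 0.75, SEMA3D at 0.00088, WIF1 at −0.12, and ENSOARG00000020789 at −1.30. With a sample left out NCAN ranged from −0.35 to 0.38 (0.0043 without SP sample 5), SEMA3D from −0.24 to 0.023 (0.0013 without SP sample 5), WIF1 from −0.17 to 0.49, MTNR1A from −0.13 to 0.57, and GPR56 from −0.19 to 0.0072, and SYT5 in the CRY1-low samples ranged from −0.16 to 0.12 (highest without SP sample 1). limma gave 0.23 for NCAN and −0.063 for MTNR1A. LP day 7 alone gave 0.033 for GPR56, −0.19 for WIF1, and −0.70 for MTNR1A, and LP day 28 alone 0.053 for CGA, 0.020 for NCAN, and −0.88 for NLRP12. Even-numbered samples gave 0.16 for GPR56, 0.79 for NCAN, and 0.032 for SEMA3D. The covariate CRY1 gave 0.0087 for GPR56 and 0.025 for SEMA3D, GH1 gave 0.12 and 0.28 for GPR56 and NCAN, and PRL gave 0.043 for GPR56. Without both LP day 1 samples 3 and 4, CGA was at 0.099 and GPR56 at 0.057.

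LP day 1 sample 4 limits genes under 9.74 CPM on the early side, and 3 counts set the limit elsewhere.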

Other observations

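A few levels set the CRY1-high and CRY1-low samples apart at every photoperiod. They were picked after the values were seen and are given with no test. The TSH receptor gene TSHR lay between 29.5 and 115 CPM (median 75.9) in the 13 CRY1-high samples and between 10.3 and 29.4 CPM (median 18.8) in the 10 CRY1-low samples. DRD1 lay between 20.3 and 110 CPM (median 38.4) with CRY1 high and between 1.53 and 11.6 CPM (median 5.49) with CRY1 low. MTNR1A showed the opposite order, with medians of 1.94 and 19.4 CPM, and so did the clock repressor NR1D1, at 64.3 to 108 CPM with CRY1 high and 107 to 458 CPM with CRY1 low, ranges that overlapped. The part of the sample numbers, which run with CRY1, was not tested.

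Interferon-induced genes had their highest values in the CRY1-low samples. MX1 was at 38.6 to 311 CPM in the CRY1-high samples (median 58.6) and at 35.0 to 2137 CPM in the CRY1-low samples (median 61.1), and ISG17 reached 72.1 CPM (median 4.37) and 1151 CPM (median 5.21). The medians of both genes were close, so the sets differed in their most extreme samples.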
